A study of Homo sapiens with 6 samples.

Results

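NRF2, the transcription factor encoded by NFE2L2, its inhibitor KEAP1, its DNA-binding partner MAFG and 7 genes that it is classically known to switch on were followed in HepG2 cells kept with or without extra glycine. The 10 genes were chosen by name, as NFE2L2, KEAP1, MAFG, NQO1, OSGIN1, TXNRD1, SRXN1, ME1, SQSTM1 and PIR, from 57500 genes counted in each library. Of the 15492 genes that passed the filter on low counts, 9 belonged to the group, and ME1 did not pass. HepG2 is an established human hepatocellular carcinoma line, and every library came from wild-type HepG2 cells. The 3 glycine libraries came from cells given 10 mM glycine for 24 h, and the 3 vehicle libraries from cells given vehicle. Because the standard medium used in the study already contains glycine, the vehicle cells were not deprived of it. A single tumour line, 1 dose and 1 time stood behind every value.

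With glycine, the transcripts of NRF2 itself and of 2 of its targets were lower, and no gene of the group rose. NFE2L2 fell by 22.6% (95% interval -29.9% to -14.4%). OSGIN1 fell by 25.8% (-32.8% to -17.98%), and NQO1 fell by 19.7% (-29.8% to -8.30%). The inhibitor KEAP1, the partner MAFG and the targets TXNRD1, SRXN1, SQSTM1 and PIR did not pass the test, and ME1 was not detectable at this depth. Of the 9 genes tested, 3 were called lower, which is 33.3%, and 0 were called higher. Among all tested genes 13.3% were called in either direction, 6.54% lower and 6.71% higher. DESeq2 and limma-voom also called 0 of the 9 genes higher. At an unadjusted p under 0.05 the edgeR test gave 4 of the 9 genes, all of them lower. Among all 15492 tested genes, 4225 had an unadjusted p under 0.05 in either direction, so nothing is read from that count of 4. In a bulk sample, fewer cells of one kind and less RNA per cell cannot be told apart.

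NRF2 is made continuously and, in unstressed cells, is bound by KEAP1, which holds it to a CUL3 ubiquitin ligase for destruction. Electrophiles and oxidants modify cysteines of KEAP1, NRF2 escapes, enters the nucleus, pairs with a small MAF protein such as MAFG and binds antioxidant response elements beside genes of quinone reduction, thioredoxin and glutathione recycling, and NADPH supply. In liver this programme handles xenobiotics and reactive by-products of metabolism. Most of this control acts on the NRF2 protein, which these libraries do not measure. The transcripts of NRF2 targets are a common readout of its activity.

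The libraries held between 31795489 and 58815986 counts, and glycine library 2 was the deepest, at 1.85 times the lowest total. All 10 hepatocyte markers examined were detected in these cells, with a summed level between 31990 and 36350 CPM (the count of a gene relative to the scaled total of its library) with vehicle and between 28020 and 31940 CPM with glycine. Of these 10 markers 2 were called lower, APOA1 and TTR, where 6.54% of all tested genes were. The part of these 2 in the changes below was not tested. Markers of leukocytes, endothelium and stroma, 6 genes in all, summed to 8.29 to 8.82 CPM with vehicle and 10.2 to 11.2 CPM with glycine, and 3 of them, PTPRC, VWF and COL3A1, stayed at or under 1 CPM in every library. COL1A1 and CD68 were called higher and VWF lower with glycine, where 13.3% of all tested genes were called in either direction. Counts were low, at 8 to 25 per library for VWF and 43 to 117 for CD68. The part of these changes in the results below was not tested.

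The core of the antioxidant response element was searched as TGACNNNGC on both strands of the RefSeq promoters of build GRCh38.p14, each reaching from 250 bases before to 50 after an annotated start. All 10 genes had at least 1 promoter in that table, 15 in all. The core was found in 5 of the 15 promoters (33.3%), against 13.3% of all 35116 promoters and 14.8% of the promoters of tested genes. It lay in promoters of KEAP1, TXNRD1, ME1 and PIR, and in none of NFE2L2, OSGIN1 and NQO1, the 3 genes that fell, nor of MAFG, SRXN1 and SQSTM1, which were not called. A match is a description of letters and not a proven site, and its absence says only that these letters are not in this window. The stretches that carry the core upstream of the start are shown as a description. Elements more than 250 bases before a start were not searched, in the genes that fell as in the others. Capitals mark the core, which reads GCNNNGTCA where it lies on the other strand.
ME1, chr6:83431165-83431203, minus strand: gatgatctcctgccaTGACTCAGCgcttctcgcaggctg
TXNRD1, first start, chr12:104215665-104215703, plus strand: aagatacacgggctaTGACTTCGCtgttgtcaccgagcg
TXNRD1, second start, chr12:104286920-104286948, plus strand: gtggatttctGCTTTGTCAttctgactct
KEAP1, upstream match, chr19:10502807-10502835, minus strand: acttttattgTGACACGGCgggcgcccgg
KEAP1, match nearer the start, chr19:10502784-10502812, minus strand: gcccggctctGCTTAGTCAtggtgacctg

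The first base of the capitals lies 137 bases before the start in ME1, 99 and 102 bases before the respective starts in TXNRD1, and 54 and 31 bases before the start in KEAP1. Of the 8 matches in the group, a second one of ME1 and that of PIR lie after the start and another of TXNRD1 reaches it, and these are not printed. The ME1 and first TXNRD1 stretches lie upstream of every GENCODE transcript there, whereas the KEAP1 stretches and the second TXNRD1 stretch overlap annotated exons. The ME1 core also holds TGANTCA, the element of the AP-1 family, whose letters overlap those of the antioxidant response element. TGANTCA occurred in 7.71% of all promoters and in 3 of the 15 promoters of the group, those of ME1, PIR and OSGIN1. In OSGIN1, the most lowered of the 3 genes, it stands without the full core. Its stretch lies outside exons and within 3 annotated transcripts, with the capitals marking the AP-1 element 97 bases before the start.
OSGIN1, AP-1 element, chr16:83953128-83953164, plus strand: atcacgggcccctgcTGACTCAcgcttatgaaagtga

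Among the regulators, NFE2L2 (ENSG00000116044, GRCh38 chromosome 2, 177227595 to 177392697, minus strand) fell. Its level was 221, 225 and 235 CPM in vehicle libraries 1 to 3 and 173, 189 and 165 CPM in glycine libraries 1 to 3. All 3 glycine libraries lay below all 3 vehicle libraries, with glycine library 3 the lowest. The mean went from 227 ± 7.34 to 176 ± 11.9 CPM (SD, n = 3 each). The log2 change was -0.37 (SE 0.067, 95% interval -0.51 to -0.23), with an edgeR adjusted p of 0.0027. Of all tested genes, 8.14% had a lower log2 change. Other genes overlap 20.9% of the NFE2L2 exon length, 17.6% on the same strand, so a part of its reads could be assigned differently. The overlapping genes AC019080.1 and AC079305.1 held 406 and 127 counts in all libraries together (0.854% and 0.267% of those of NFE2L2). The overlapping gene AGPS held 39315 counts, or 82.7% of those of NFE2L2, and had a log2 difference of -0.06 (edgeR adjusted p = 0.607).

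KEAP1 (ENSG00000079999, chromosome 19, 10486120 to 10503741, minus strand), the sensor that marks NRF2 for destruction, did not pass the test. It stood at 134, 141 and 149 CPM with vehicle and at 125, 131 and 126 CPM with glycine. The groups did not overlap, with 4896 of all tested genes (31.6%) also showing no overlap. The log2 difference was -0.15 (SE 0.062, 95% interval -0.28 to -0.02) and the edgeR adjusted p 0.14, so KEAP1 was not called. As a description, 1.65, 1.59 and 1.58 NFE2L2 counts were found per KEAP1 count with vehicle, and 1.39, 1.44 and 1.31 with glycine. That ratio, which does not depend on library scaling, was lower in every glycine library than in any vehicle library.

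MAFG (ENSG00000197063, chromosome 17, 81918270 to 81927714, minus strand), a small MAF protein that lends NRF2 its DNA contact, overlapped between the groups. Its level was 62.7, 51.2 and 58.8 CPM with vehicle and 54.5, 51.0 and 60.5 CPM with glycine. The log2 difference was -0.06 (SE 0.085, 95% interval -0.24 to 0.13, edgeR adjusted p = 0.715).

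**Figure D1:**
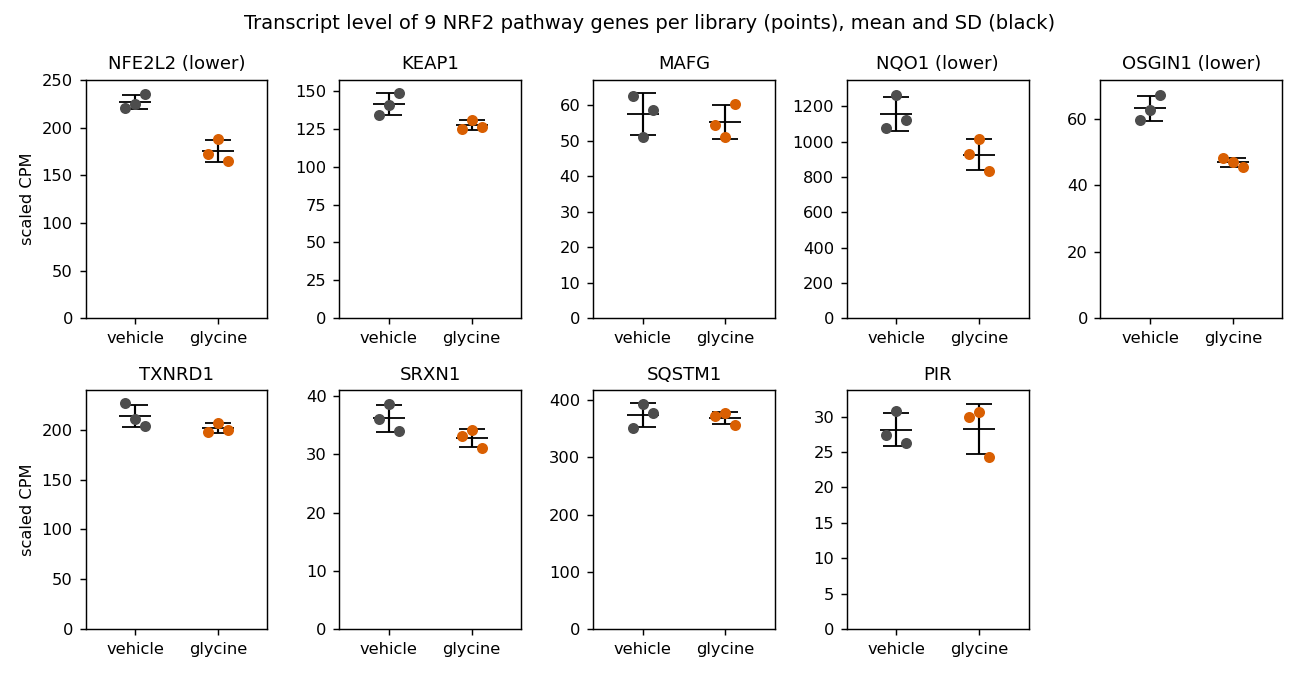
Level of the 9 tested genes in each library, in scaled CPM on axes that start at 0, with points for the 3 vehicle (grey) and 3 glycine (orange) libraries and the mean and SD in black. The glycine points of NFE2L2, NQO1 and OSGIN1, marked lower, lie below every vehicle point, as do those of KEAP1, which was not called.

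OSGIN1 (ENSG00000140961, chromosome 16, 83948282 to 83966332, plus strand), an oxidative stress induced growth inhibitor, had the largest fall of the 9 tested genes. It was measured at 59.6, 62.6 and 67.2 CPM with vehicle and at 48.3, 47.0 and 45.4 CPM with glycine. The vehicle and glycine libraries were separated by a gap wider than the range within either group. Its mean fell from 63.2 ± 3.83 to 46.9 ± 1.45 CPM (SD, n = 3 each). The log2 change was -0.43 (SE 0.067, 95% interval -0.57 to -0.29, edgeR adjusted p = 0.000885), a value that 6.29% of tested genes fell below. The neighbouring gene AC009119.2 shares 13.9% of the OSGIN1 exon length on the same strand, and it held 121 counts in all libraries together, which is 0.938% of those of OSGIN1.

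NQO1 (ENSG00000181019, chromosome 16, 69706996 to 69726951, minus strand), the quinone reductase widely used as a marker of NRF2 activity, was the most abundant transcript of the group. It took 0.108%, 0.124% and 0.112% of all counts in the vehicle libraries and 0.0935%, 0.101% and 0.0847% in the glycine libraries. Its level was 1079, 1265 and 1122 CPM with vehicle and 932, 1014 and 835 CPM with glycine. The groups did not overlap, but the gap between them was narrower than the range within either group. The log2 change was -0.32 (SE 0.089, 95% interval -0.51 to -0.13, edgeR adjusted p = 0.033). The call rested on single libraries, because the edgeR adjusted p was 0.0851 without vehicle library 2, 0.0874 without glycine library 1 and 0.126 without glycine library 3.

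**Figure D2:**
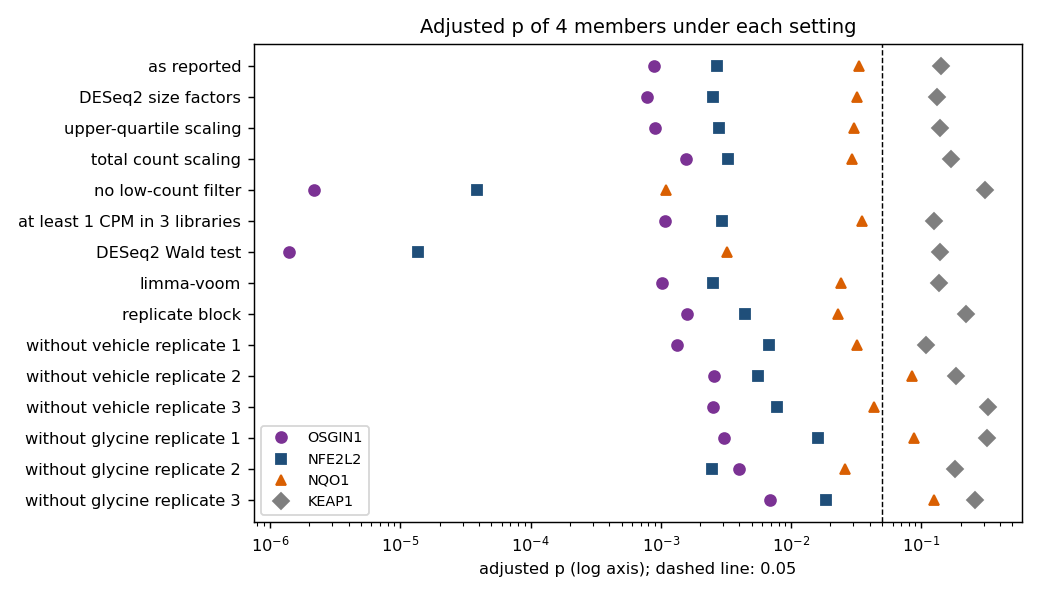
Adjusted p (log axis) of OSGIN1, NFE2L2, NQO1 and KEAP1 as reported and under 14 other settings, with the threshold of 0.05 as a dashed line. OSGIN1 and NFE2L2 stay left of the line in all 14, NQO1 in 11, and KEAP1 in 0.

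The enzymes that regenerate reduced thiols did not pass the test. TXNRD1 (ENSG00000198431, chromosome 12, 104215779 to 104350305, plus strand), the cytosolic thioredoxin reductase, stood at 227, 211 and 205 CPM with vehicle and at 198, 207 and 200 CPM with glycine. The groups overlapped through glycine library 2, and the log2 difference was -0.09 (95% interval -0.22 to 0.05, edgeR adjusted p = 0.425). SRXN1 (ENSG00000271303, chromosome 20, 646615 to 653370, minus strand), the sulfiredoxin that repairs overoxidised peroxiredoxins, was found at 35.99, 38.65 and 33.97 CPM with vehicle and 33.1, 34.1 and 31.1 CPM with glycine. Only glycine library 2 reached above the lowest vehicle library, by 0.142 CPM. The log2 difference of SRXN1 was -0.14 (95% interval -0.30 to 0.01, edgeR adjusted p = 0.222). Its count is uncertain, because AL121758.1 covers 85.0% of the exon length on the same strand, with 83 counts of its own.

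SQSTM1 and PIR were not called, and their groups overlapped. SQSTM1 (ENSG00000161011, chromosome 5, 179806398 to 179838078, plus strand) encodes p62, an autophagy receptor that can itself draw KEAP1 away from NRF2. It was measured at 351, 392 and 378 CPM with vehicle and 373, 377 and 356 CPM with glycine, with a log2 difference of -0.02 (95% interval -0.17 to 0.13, edgeR adjusted p = 0.885). Other genes on the opposite strand cover 22.0% of the SQSTM1 exon length, so a part of its reads could be assigned differently. The larger of them, MGAT4B, held 72.3% as many counts as SQSTM1 and had a log2 difference of -0.12 (edgeR adjusted p = 0.266). PIR (ENSG00000087842, chromosome X, 15384799 to 15493564, minus strand), an iron-binding nuclear protein, stood at 27.4, 30.8 and 26.3 CPM with vehicle and at 29.9, 30.6 and 24.3 CPM with glycine. The PIR log2 difference was 0.01 (95% interval -0.20 to 0.21, edgeR adjusted p = 0.98). For all 6 tested genes that were not called, the 95% interval lay within 0.3 of 0 on the log2 scale. That bound is close to the called change of NQO1 (-0.32), and the KEAP1 interval (-0.28 to -0.02) lay wholly below 0. These intervals therefore do not show that the 6 genes were unchanged.

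**Figure D3:**
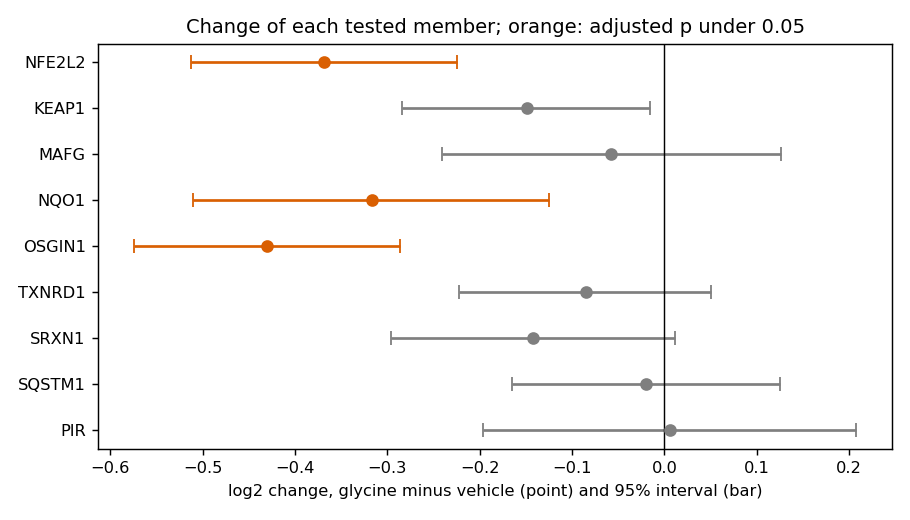
Log2 change (glycine minus vehicle) of the 9 tested genes as points with 95% intervals as bars, orange where the adjusted p was under 0.05. OSGIN1, NFE2L2 and NQO1 lie between -0.43 and -0.32, and PIR alone lies above 0.

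ME1 (ENSG00000065833, chromosome 6, 83210389 to 83431071, minus strand), the cytosolic malic enzyme that makes NADPH, yielded 1 count over all 6 libraries, in glycine library 2. It was therefore not tested, and a count at this level allows no comparison between the groups. A level of 3 counts would correspond to between 0.051 and 0.0943 CPM of the unscaled total of a library, and these limits cover counting error only. Its promoter holds both motifs, as printed above, and its transcript was not detectable at this depth.

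Across the 9 tested genes the median log2 change was -0.14 and 8 lay below 0, whereas over all tested genes the median was 0.00 and 49.2% lay below 0. The 10 hepatocyte markers lay further in the same direction, with a median of -0.23, 8 of 10 below 0 and 5 at an unadjusted edgeR p under 0.05. Among all 15492 tested genes 4225 had such a p, so nothing is read from that count of 5. The part of the markers in the shift of the 9 genes was not tested. Glycine library 3 was the lowest glycine library for 6 of the 9 genes and glycine library 2 the highest for 7 of them. The group is well expressed. NQO1 had a higher mean CPM than 99.4% of tested genes, SQSTM1 than 97.4%, and PIR, the lowest of the 9, than 59.8%.

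**Figure D4:**
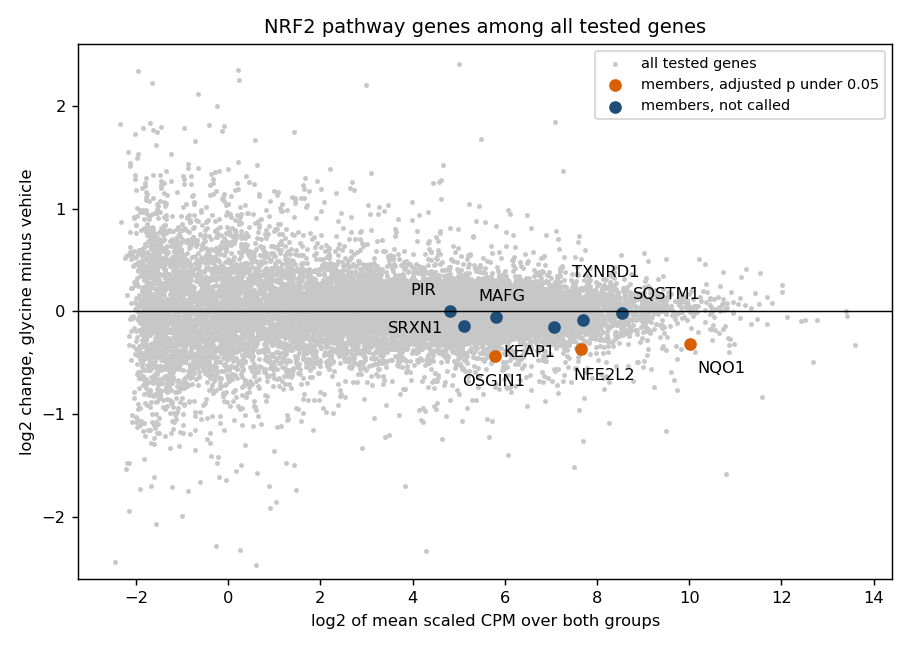
Log2 change against log2 mean CPM for all 15492 tested genes (grey), with the 9 genes of the group in orange where called and blue where not. The 3 called genes sit between -0.43 and -0.32, and 5 other genes lie beyond the axis limits of 2.6.

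Per kilobase of exon, where genes can be compared with each other, NQO1 led in the vehicle libraries at 355 CPM per kilobase, followed by SQSTM1 at 48.8, NFE2L2 at 37.9, KEAP1 at 37.6 and TXNRD1 at 31.9. OSGIN1 stood at 18.3, SRXN1 at 13.4, PIR at 11.2, MAFG at 11.0, and ME1 last. The vehicle libraries of NFE2L2 and KEAP1 overlapped, as did those of PIR and MAFG, and no other neighbours in this order did. With glycine, NFE2L2 stood at 29.4 and KEAP1 at 33.9 CPM per kilobase, and every glycine library had more KEAP1 than any had NFE2L2 on that scale. Other genes overlap 20.9% of the NFE2L2 exon length, 85.0% of that of SRXN1 and 0% of that of KEAP1. Reads there could be assigned differently while the full length is counted, so places in this order may depend on the annotation.

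The pattern of OSGIN1 over the 6 libraries was most closely followed by NEU4, HOMER3 and FAM20C among the tested genes whose mean reached 10 CPM. Their root mean square differences from OSGIN1 in centred log2 CPM were 0.0255, 0.0307 and 0.0366. Within the group NFE2L2 was nearest, at 0.0633, then NQO1 at 0.118 and KEAP1 at 0.144. These distances describe 6 libraries that share 2 conditions.

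The rest of the pathway was read from 7 lists of other genes, 50 in all, of which 48 were tested. Of the 48, 11 were called lower and 2 higher, or 27.1%, with a median log2 change of -0.07, against 13.3% of all tested genes called, 6.54% lower and 6.71% higher. The lists were chosen with earlier results of these data known, so these shares are a description. In the lists with 1 or 2 called genes the share called was 10.0% to 25.0%, and nothing is read from those counts. Among the other regulators 1 of 10 rose and 0 fell. NFE2L3, which encodes NRF3, a relative of NRF2 in the same CNC family, went from 17.5, 15.4 and 18.4 CPM with vehicle to 24.8, 25.4 and 26.2 CPM with glycine. Its log2 change was 0.58 (SE 0.080, edgeR adjusted p = 0.000382), opposite in sign to that of NFE2L2. The small MAF gene MAFF had a log2 difference of 0.28 with no overlap between the groups (edgeR adjusted p = 0.0787), and MAFK one of -0.17 (edgeR adjusted p = 0.15). BACH1, the repressor that competes with NRF2 for the same elements, differed by -0.14 (edgeR adjusted p = 0.267). The log2 differences of the remaining regulators, none of them called, were 0.00 for NFE2L1, -0.16 for NFE2, 0.02 for CUL3, 0.03 for RBX1, -0.06 for BTRC and -0.10 for GSK3B.

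The glutathione list split in direction, with 3 of 8 genes lower and 1 higher, where 6.54% of all tested genes were called lower and 6.71% higher. GPX2, a glutathione peroxidase, fell from 610 ± 42.8 to 418 ± 23.1 CPM (SD, n = 3 each, log2 change -0.55, edgeR adjusted p = 0.000358). GSR, which reduces oxidised glutathione, fell from 238 ± 11.4 to 181 ± 8.42 CPM (log2 change -0.40, edgeR adjusted p = 0.0014). GCLC, the catalytic subunit of the enzyme that starts glutathione synthesis, was lower at 81.4, 81.0 and 81.1 CPM against 96.5, 97.7 and 89.1 CPM (log2 change -0.22, edgeR adjusted p = 0.0326). Its modifier subunit GCLM, with a log2 difference of -0.17 (edgeR adjusted p = 0.118), and the cystine importer SLC7A11, at -0.11 (edgeR adjusted p = 0.551), were not called. The call of GCLC held in 7 of 14 other settings, and it was lost when any 1 library other than vehicle library 3 was left out (adjusted p 0.0818 to 0.0939).

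The largest changes of the pathway were in the aldo-keto reductases, NADPH-dependent enzymes that reduce aldehydes, ketones and steroids. Of the 5 genes 4 were called lower, against 6.54% of all tested genes, and the median log2 change was -1.16. AKR1C1 dropped from 2648 ± 282 to 887 ± 63.3 CPM (SD, n = 3 each, log2 change -1.58, edgeR adjusted p = 3.51e-07). AKR1B10 changed by -1.26 (edgeR adjusted p = 1.24e-05), AKR1C2 by -1.16 (edgeR adjusted p = 8.66e-06) and AKR1C3 by -0.55 (edgeR adjusted p = 0.000254) on the log2 scale. The AKR1C genes are near-identical paralogs, so the split of reads between them is uncertain.

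**Figure D5:**
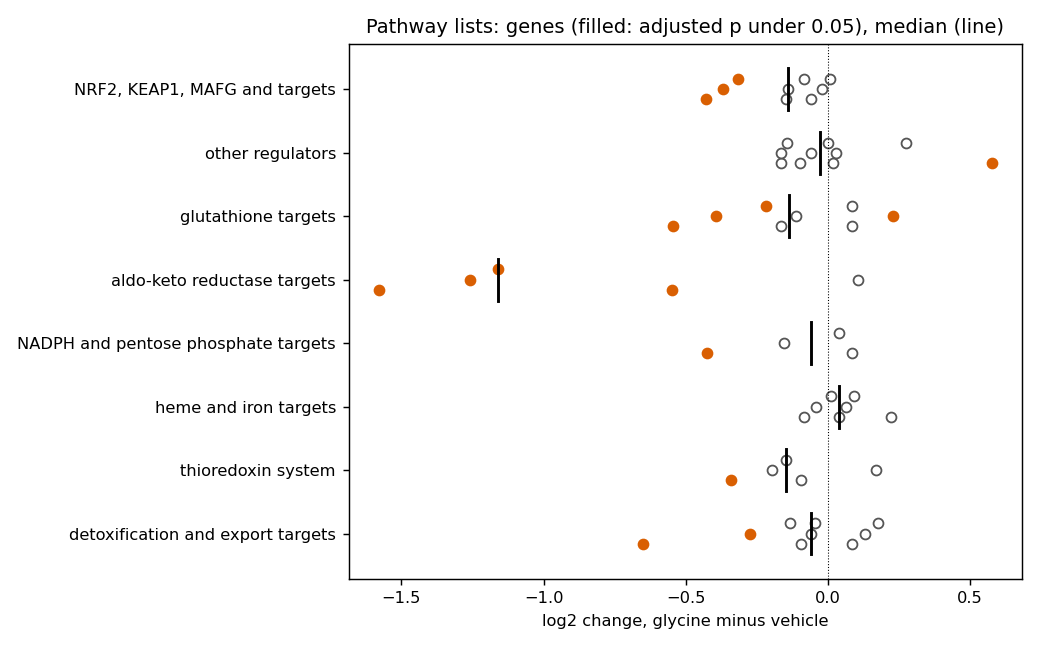
Log2 change (glycine minus vehicle) of each tested gene of the NRF2 group and of 7 other pathway lists, filled where the adjusted p was under 0.05, with each list's median as a line. The aldo-keto reductases lie farthest from 0, with a median of -1.16. The heme and iron list has no filled point, where 13.3% of all tested genes were called.

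In the 3 lists of NADPH supply, the thioredoxin system, and detoxification and export, 1 or 2 genes fell in each. IDH1, the cytosolic NADP-dependent isocitrate dehydrogenase, was the 1 gene called of 4 in the NADPH list, from 618 ± 6.40 to 461 ± 11.3 CPM (log2 change -0.42, edgeR adjusted p = 0.000708). PRDX1, a peroxiredoxin, was the 1 called of 5 in the thioredoxin list, at a log2 change of -0.34 (edgeR adjusted p = 0.0105), and was not called without glycine library 1 (0.0508) or glycine library 3 (0.0518). In the list of detoxification and export, 2 of 9 tested genes fell. EPHX1, the microsomal epoxide hydrolase, went from 343 ± 28.0 to 218 ± 17.5 CPM (log2 change -0.65, edgeR adjusted p = 0.000137). The lipase gene ABHD4 changed by -0.27 on the log2 scale (edgeR adjusted p = 0.0111, and 0.0522 without glycine library 3).

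The heme and iron list had 0 of 7 genes called by edgeR, with 1 at an unadjusted p under 0.05. DESeq2 and limma-voom also called 0 of the 7. Among all 15492 tested genes edgeR called 13.3%, and 4225 had an unadjusted p under 0.05, so nothing is read from these counts. The 1 gene of the list at an unadjusted p under 0.05 was HMOX1, heme oxygenase 1, which NRF2 drives and BACH1 represses. It stood at 60.3, 66.8 and 71.1 CPM with vehicle and at 74.4, 79.9 and 76.8 CPM with glycine, with every glycine library above every vehicle library. The log2 difference was 0.22 (SE 0.071, edgeR adjusted p = 0.0554). HMOX1 passed the threshold in 3 of 14 other settings. These were without vehicle library 3 (edgeR adjusted p = 0.0234), with total count scaling (0.0433) and with no filter on low counts (0.0375). Leaving out other libraries gave an edgeR adjusted p of up to 0.242.

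Of the 33 other pathway genes with a RefSeq promoter, 12 held TGACNNNGC, and 3 of the 8 that fell did so. Of their 46 promoters 26.1% held it, against 13.3% of all promoters and 14.8% of the promoters of tested genes. Most of the 12 genes with the core were not among those that fell, and nothing is read from these counts. The 3 that held it and fell were GPX2, IDH1 and EPHX1, whose upstream stretches follow with the core in capitals.
GPX2, chr14:64942849-64942877, minus strand: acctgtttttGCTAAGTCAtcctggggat
IDH1, chr2:208255191-208255229, minus strand: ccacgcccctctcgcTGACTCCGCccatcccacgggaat
EPHX1, chr1:225825261-225825299, plus strand: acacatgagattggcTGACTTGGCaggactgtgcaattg

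The first base of the core lies 122 bases before the start in GPX2, 143 in IDH1 and 78 in EPHX1. The GPX2 stretch overlaps an annotated exon, and the stretches of IDH1 and EPHX1 overlap transcripts of their genes outside exons.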

How the data were processed

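RNA of 6 HepG2 libraries, 3 vehicle and 3 glycine, was sequenced, and groups and replicate numbers were taken from the sample titles and treatment labels. In the deposited files, 1 for each library, the authors gave raw counts as whole numbers for every gene, with no scaling. A further deposited column, of another kind, gives the exon length of each gene. Per the submitters' processing notes, Trimmomatic 0.36, STAR 2.5.2b, featureCounts, Subread 1.5.2 and GRCh38 were used. The annotation release and the strand setting are not given in the sources used here, so reads in overlapping genes and paralogs could be assigned in more than 1 way. All 10 members had the same start and end in GENCODE 29.

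Counts were tested as deposited by edgeR 4.0.16 under R 4.3.3 (quasi-likelihood test, two-sided, group alone in the model), after the edgeR filter at its defaults (minimum count 10, minimum total 15) and TMM scaling, with Benjamini-Hochberg adjustment over all 15492 tested genes and a threshold of 0.05. CPM used the scaled library sizes. On simulated counts of 15492 genes for this comparison, 175 of 200 genes changed by 1 on the log2 scale were recovered (87.5%), with 15 false calls. The called members changed by less (-0.43 to -0.32), and recovery at that size was not simulated. Alternatives were DESeq2 1.42.0 (its size factors and its Wald test), limma-voom 3.58.1, upper-quartile and total count scaling, no low-count filter, a filter of at least 1 CPM in 3 libraries, a block for the replicate number and fits without each library in turn. The series text calls the replicates independent. P-values measure only the spread between these samples. Replicate libraries differed beyond counting noise (chi-square per degree of freedom 6.97 to 26.8).

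The members, the pathway lists and the tests were chosen with earlier results of these data known. Genes named were the 10 members, the other regulators, HMOX1, GCLC, GCLM and SLC7A11, up to 4 called genes with the smallest p in each other list, and the 3 genes nearest to the member with the smallest p. Overlapping neighbours and marker genes were named after their values were seen. A gene that falls under this rule is not reported here.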

Additional observations from a re-analysis of the deposited data

How the results depend on the processing

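Under all 8 other settings, 3 of the 9 members were called lower and 0 higher, and leaving out each library in turn gave 2 to 3 lower and 0 higher. The log2 change ranged from -0.42 to -0.34 for NFE2L2, from -0.48 to -0.38 for OSGIN1 and from -0.39 to -0.25 for NQO1. Over the 14 alternatives PIR lay on both sides of 0 (-0.059 to 0.095), as did SQSTM1 (-0.075 to 0.017). MAFG ranged from -0.137 to 0.00 and did not turn positive. Leaving out a library gave 587 to 926 genes called higher (1040 with all libraries) and 655 to 1010 called lower (1013), with fewer samples in each fit. The count of higher genes was 590 without vehicle library 1 and 594, 617 and 587 without glycine libraries 1, 2 and 3, and the lowest count of lower genes came without glycine library 2. Over the 7 other lists it gave 1 to 3 genes higher. The glutathione list gave 0 to 1 higher, the heme and iron list 0 to 1 higher, the thioredoxin list 0 to 2 lower (2 without glycine library 2, where TXN was added) and the detoxification list 1 to 2 lower. With no low-count filter, 4 genes of the 7 lists were called higher, of which 2 were other regulators, with MAFF added, and 1 was in the heme and iron list. With total count scaling 1 heme and iron gene, HMOX1, was called higher. The cause of these shifts was not tested.

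Whether the replicate numbers pair the libraries could not be decided. Same-numbered libraries correlated at -0.058, -0.027 and -0.003 in their deviations from the group means, and differently numbered libraries at -0.198 to 0.214. With means of 3 libraries, such values neither show nor exclude pairing. For cell work in general, the paper describes running both arms on every day, so same-numbered libraries may share a day. With the replicate block, 3 members were still called lower and 0 higher, 866 genes in all were higher and 918 lower, 0 genes of the glutathione list were higher, the call of GCLC was lost (adjusted p = 0.0646), and 1 gene of the 7 lists was higher and 10 lower. The depth limits ME1, CBR3 (3 counts in all) and UGT1A6 (26 counts in all), which were not tested.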
